A study of Mus musculus with 6 samples.

Results

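The mouse genes named Rnf and Trim encode a large part of the RING finger ubiquitin ligases, and their m6A peaks are described here. The set was formed from gene names alone: every peak was taken whose gene name is Rnf or Trim followed by a digit, leaving out Rnf212 and Rnf212b. It held 180 of 24127 peaks in the comparison of ClpP cKO with WT, on 95 of 13334 gene names. In the comparison of ClpX cKO with WT it held 184 of 23681 peaks, on 95 of 13085 gene names. Over both comparisons the set came to 99 genes, 66 named Rnf and 33 named Trim, of which 91 had a peak in both.

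The samples were labelled as spermatocytes, which are male germ cells, of mice at postnatal day 35. There were 3 genotypes: a WT control, a knockout of ClpP and a knockout of ClpX, the proteolytic and the unfoldase subunit of a mitochondrial matrix protease. Both knockouts (cKO) were made in germ cells with Cre driven by the Stra8 promoter, which acts from the spermatogonial stage on. Stages before that keep the gene, and no allele of the WT control is given in the labels. Each genotype was profiled by m6A-seq, in which an antibody captures RNA carrying N6-methyladenosine; 1 captured (IP) and 1 input library were made per genotype, 6 libraries in all. The values below are the authors' own comparisons of these libraries, so no replicate error is available for any of them, and the WT libraries are shared by both comparisons. Whether 1 library stands for 1 animal or a pool is not stated in the labels.

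A RING finger is a zinc-binding fold that brings a ubiquitin-loaded conjugating enzyme to a substrate, so that ubiquitin passes directly onto it. In a subgroup, the RING-between-RING ligases, ubiquitin is first carried by the ligase itself. TRIM proteins join the RING to B-box and coiled-coil segments and to a variable end, such as a PRY-SPRY domain, that recognises the target. In the testis, ubiquitylation of histones by RING ligases is known for its part in meiotic sex chromosome silencing and in the replacement of histones by protamines.

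Of 149 protein-coding genes of these names in RefSeq (GRCm38.p6), 97 had a listed peak and 52 had none. Among Rnf genes 64 of 81 had a peak, and among Trim genes 33 of 68. The Trim genes without a listed peak include Trim28, a corepressor of retroelements, and many members of the antiviral clusters, such as Trim5, Trim12a, Trim12c and Trim30a to Trim30d. Rnf138, which acts in DNA end resection, and Rnf31, the catalytic subunit that builds linear ubiquitin chains, had none either. A gene without a listed peak may lack m6A or be too weakly expressed, which cannot be told apart here. Peaks only in the ClpP comparison were on Rnf141, Rnf152, Rnf170 and Trim2, and peaks only in the ClpX comparison on Rnf5, Rnf44, Trim8 and Trim66.

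The consensus of m6A sites is a methylated A followed by C, preceded by A or G and before that by A, G or T, and followed by A, C or T. Genomic sequence was at hand only around transcript starts, taken from RefSeq (GRCm38.p6), where 10 member peaks of the ClpP comparison and 14 of the ClpX comparison reach the window. The stretches below lie in the first 50 bases after a RefSeq transcript start of 3 members and inside a peak called in at least 1 comparison. For Rnf151 and Rnf26 that start is the start of the gene, whereas for Trim27 it lies 481 bases inside the gene's span. They are shown 5′ to 3′ on the transcript strand, to show what these peaks cover in the 5′ part of the gene. Capitals mark 1 match to the consensus per stretch. The Trim27 stretches overlap, so each also holds the other's match in small letters. The first Trim27 stretch is at chr13:21179949-21179977 on the plus strand and the second, which overlaps it, at chr13:21179961-21179980. The Rnf151 stretch is at chr17:24718010-24718038 on the minus strand, and the Rnf26 stretch at chr9:44113002-44113020 on the minus strand.
Trim27 first: gccactaagaggAAACTcagcagaagact
Trim27 second: aaactcagcagaAGACTacg
Rnf151: atggaggctcctGAACTcttggtctcagt
Rnf26: tagtggcaacctTGACAcc
The same consensus occurs in the first 50 transcribed bases of 54.4% of 32851 RefSeq starts, so a match describes the letters and marks no site.

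Member peaks lay near the 3′ end about as often as all peaks and were longer at the median. Their median length over exon blocks was 358 bases in the ClpP comparison and 359 in the ClpX comparison, against 301 and 300 over all peaks. In the ClpP comparison 31.7% of member peaks lay within 1000 bases of the gene's 3′ end, against 32.7% of all peaks that could be placed. In the ClpX comparison the shares were 30.4% and 31.4%. A single peak was listed for 43.2% of the members in each comparison, against 53.9% and 54.0% of all genes. Rnf213 had the most peaks, 6 and 8. This giant ATPase with a RING is known for its link to moyamoya disease and for defence against microbes. Fold enrichment of IP over input had a member median of 7.475 (ClpP) and 8.305 (ClpX), against 8.23 and 8.9 over all peaks.

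The most enriched member peak in either comparison was on Rnf213. In the authors' deposited table it had a fold enrichment of 59.3 for ClpP, at chr11:119440203-119442213, and of 48.3 for ClpX, at chr11:119440263-119442093. Rnf146, a ligase that recognises poly-ADP-ribosylated proteins such as axin, followed with 37.6 and 45.9 in the authors' deposited table. Its peak shares bases with a peak of Echdc1, so the assignment to 1 of these genes is uncertain. Trim21, an intracellular antibody receptor, had a peak of 37.5 in the authors' deposited table for ClpP. Trim25, which ubiquitylates the RNA sensor RIG-I, had one of 43.6 in the authors' deposited table for ClpX. The Trim21 and Trim25 peaks were called in neither direction.

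Calls follow the adjusted p that the authors gave for each difference between genotypes, with a threshold of 0.05. Its direction is the sign of the log2 fold change, read as knockout against WT only because each table names the knockout first. In ClpP cKO, 13 of 180 member peaks were called higher (7.22%; 6.74% of all peaks) and 35 called lower (19.4%; 12.8% of all peaks). The median log2 fold change of member peaks was -0.147, against -0.034 over all peaks. Rnf peaks gave 9 higher and 23 lower of 119, and Trim peaks 4 higher and 12 lower of 61. The increases were on genes such as Trim24, Rnf168 and Rnf216, and the decreases on Rnf139, Trim27, Rnf19a and Trim36. With a minimum absolute log2 fold change of 1, 10 higher and 9 lower peaks were left. Taking 1 peak per gene, the most enriched, left 4 higher and 25 lower of 95.

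In ClpX cKO, 34 of 184 member peaks were called higher (18.5%; 15.1% of all peaks) and 20 called lower (10.9%; 5.0% of all peaks). The median log2 fold change of member peaks was 0.296, and that of all peaks was itself 0.239, so the members' median lay 0.056 above the table's. Rnf peaks gave 24 higher and 13 lower of 117, and Trim peaks 10 higher and 7 lower of 67. The increases were on Rnf151, Rnf26, Rnf181 and Rnf40 among others, and the decreases on Trim41, Rnf213, Rnf133 and Trim45 among others. Increases no longer outnumbered decreases with the table's median subtracted and peaks called anew. That gave 26 member peaks higher (11.2% of all peaks) and 40 lower (14.7% of all peaks). Calling anew without subtracting it gave 34 higher and 20 lower. Errors were also pooled over peaks of like support. With the median subtracted, that gave 24 higher (12% of all peaks) and 34 lower (16% of all peaks). Without subtracting it, the counts were 35 higher (17.7% of all peaks) and 31 lower (11.5% of all peaks). With 1 peak per gene, the most enriched, the members' median was -0.129, with 13 higher and 15 lower of 95. The same choice was not made over all genes. All ClpX peaks above the table's median fold enrichment had a median log2 fold change of -0.1, with 5.8% called higher and 7.79% lower.

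**Figure D1:**
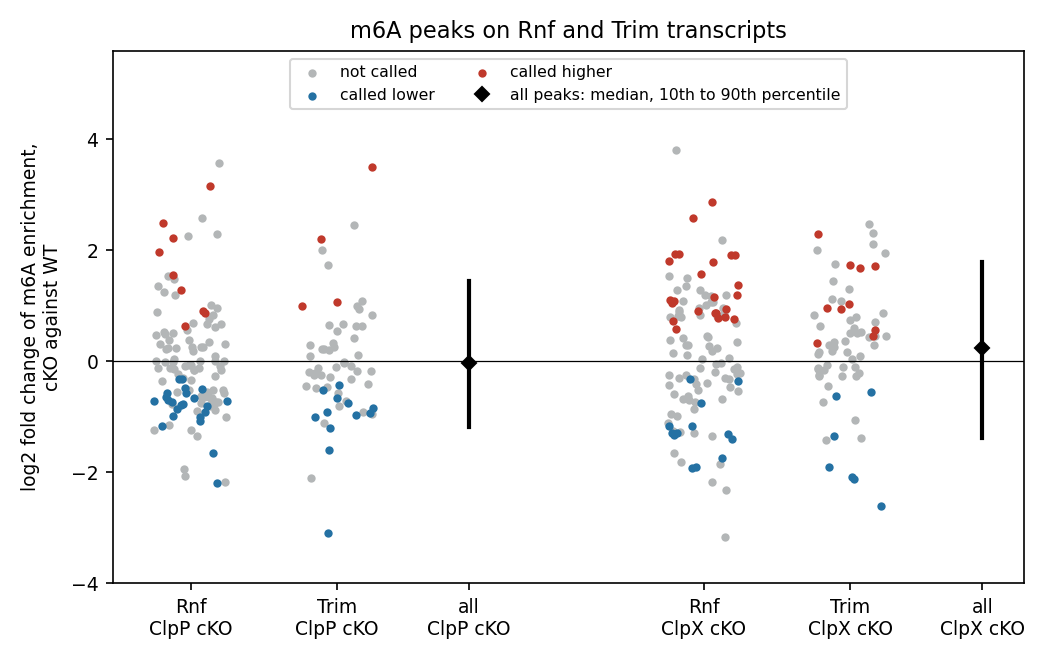
Each point is 1 m6A peak on an Rnf or Trim gene, with its log2 fold change of m6A enrichment (cKO against WT) on the vertical axis and the gene family and knockout on the horizontal axis; the black diamond and bar give the median and the 10th to 90th percentile of all peaks. Member peaks run from -3.1 to 3.58 for ClpP and from -3.17 to 3.81 for ClpX, and the peaks at both ends of the ClpX range and at the top of the ClpP range were not called.

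Increases were called mostly at weakly enriched peaks, and for ClpX the decreases mostly at strongly enriched ones. In ClpX cKO, member peaks at or below the table's median fold enrichment gave 29 higher and 3 lower calls of 99, and those above it 5 higher and 17 lower of 85. Over all of its peaks, 24.3% were called higher and 2.22% lower at or below the median, and 5.8% higher and 7.79% lower above it. In ClpP cKO the member counts were 12 higher and 15 lower of 97 at or below the median, and 1 higher and 20 lower of 83 above it. All peaks gave 10.4% higher and 13.1% lower, then 3.06% higher and 12.6% lower. The member peak above the median that was called higher for ClpP was on Rnf24, and those for ClpX were on Rnf26, Trim26, Rnf169, Trim69 and Rnf123. The Rnf26 and Rnf123 peaks share bases with peaks of other genes. These genes were named after their values were seen.

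**Figure D2:**
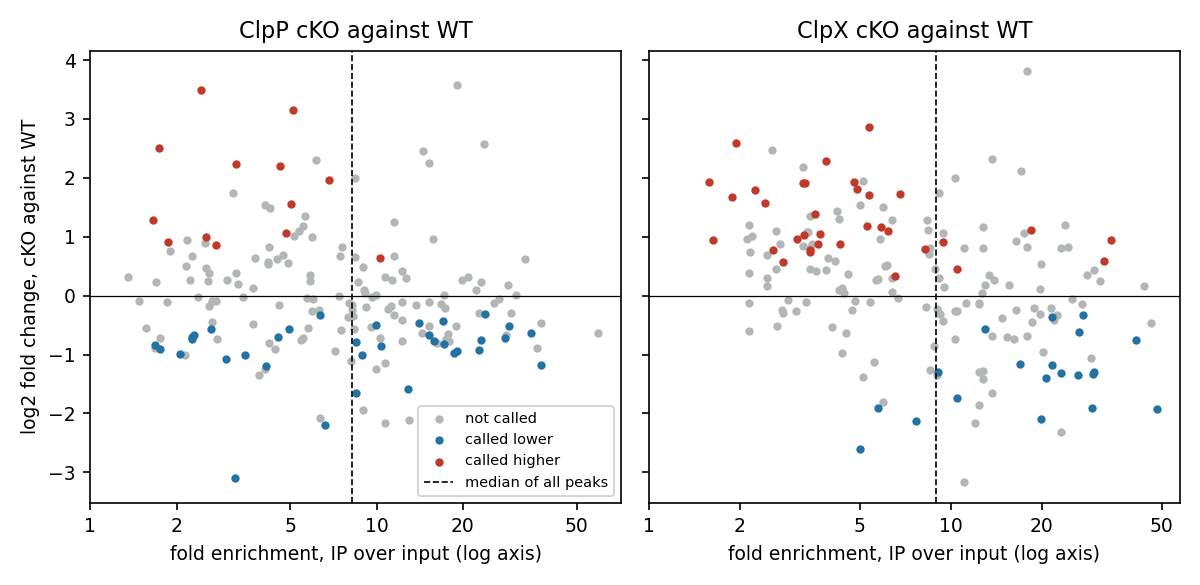
Log2 fold change (cKO against WT) against fold enrichment of IP over input (log axis) for each member peak, ClpP left and ClpX right, with the median fold enrichment of all peaks dashed. In the ClpX panel 29 of the 34 red points, called higher, lie at or left of the dashed line and 17 of the 20 blue points, called lower, lie right of it.

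Members that modify chromatin or act in DNA damage had 3 peaks called higher and 5 lower of 35 in ClpP cKO. In ClpX cKO they had 13 higher and 3 lower of 36. Over all peaks, 6.74% were called higher and 12.8% lower for ClpP, and 15.1% and 5.0% for ClpX. The ClpX increases include overlapping peaks of Rnf4, which are not all separate sites. Rnf40, which with Rnf20 places monoubiquitin on histone H2B, had a peak in the gene's middle and one near its 3′ end that were lower for ClpP, at -0.66 and -0.70 in the authors' deposited table. For ClpX the overlapping peaks were higher, at 1.05 (adjusted p = 1e-12) and 1.38 (adjusted p = 6.03e-07) in the authors' deposited table, as was the next peak at 0.87. Another ClpX peak, past the gene's end, had 2.19 in the authors' deposited table and was not called. That peak shares bases with a peak of 1700120K04Rik. None of the Rnf20 peaks was called: the authors' deposited table gave -0.060, -0.34 and 0.76 for ClpP and 0.35, 0.92 and 1.20 for ClpX.

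Rnf8 and Rnf168 act in sequence at DNA breaks, where they ubiquitylate histone H2A-type proteins, and Rnf8 also acts on the meiotic sex chromosomes. For Rnf8 the authors' deposited table had 1 called peak, close to the gene's start and higher for ClpX, at 2.59 (adjusted p = 0.000355) with a fold enrichment of only 1.95. That peak shares bases with a peak of Gm28043, so it cannot be given to Rnf8 alone. None of the 4 Rnf8 peaks for ClpP was called. The long Rnf168 peak over chr16:32291944-32299398 was lower for ClpX at -1.33 (adjusted p = 0.000129) in the authors' deposited table. The overlapping ClpP peak had 0.0042 there, uncalled, and an upstream ClpP peak was higher at 3.16 (adjusted p = 7.59e-05) in the authors' deposited table. Rnf169, which binds the Rnf168 mark and limits repair factor loading, had its main peak higher for ClpX at 0.58 (adjusted p = 0.024) in the authors' deposited table.

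Rnf4, a ligase for proteins that carry SUMO, had 4 ClpX peaks, and the authors' deposited table called each of them higher, at 0.88, 0.77, 1.93 and 1.81. They form 2 overlapping pairs near the 3′ end, so they are not 4 separate sites. None of its 5 ClpP peaks was called. Rnf2, the catalytic subunit of Polycomb repressive complex 1, had 1 of 2 peaks higher for ClpX, at 1.16 (adjusted p = 5.37e-05) in the authors' deposited table. Rnf111 (Arkadia), which removes inhibitors of TGF-beta signalling, had a 3′ peak higher for ClpP at 1.55 (adjusted p = 0.00661) in the authors' deposited table. The overlapping ClpX peak had 1.08 (adjusted p = 0.0871) in the authors' deposited table and was not called.

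Trim24, Trim28, Trim33 and Trim66 carry a PHD finger and a bromodomain, which read histone tails. A Trim24 peak at chr6:37919383-37919562 was the most increased of the called member peaks for ClpP, at 3.50 (adjusted p = 1.38e-06) in the authors' deposited table, with a fold enrichment of 2.43. No ClpX peak was listed there, and the 3′ peak of Trim24 was called in neither comparison. Trim33, a regulator of Smad4, had its most enriched peak lower in both, at -0.94 (adjusted p = 0.0115) for ClpP and -1.90 (adjusted p = 0.00741) for ClpX in the authors' deposited table. Trim66, a reader expressed in spermatids, had 1 uncalled ClpX peak at -0.74 in the authors' deposited table.

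Trim27, a PRY-SPRY repressor abundant in the male germ line, had calls in both directions along the gene. Its 3′ peak, at chr13:21192064-21192483 for ClpP, was lower at -1.20 (adjusted p = 6.31e-53) in the authors' deposited table. The overlapping ClpX peak was slightly higher, at 0.33 (adjusted p = 0.00955) in the authors' deposited table, which still exceeds the median of 0.239 over all ClpX peaks. Its first peak, which holds both printed Trim27 stretches, was lower for ClpX at -2.13 (adjusted p = 0.00309) in the authors' deposited table. The same peak for ClpP had -1.11 there and was not called. The ClpX peaks that follow it were higher at 1.68 (adjusted p = 1.58e-14) and 1.73 (adjusted p = 0.0339) in the authors' deposited table. The peak with 1.68 had a fold enrichment of only 1.88 in the authors' deposited table.

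Trim41, another PRY-SPRY member, also had calls that differed by place. Its peaks nearest the start were lower for ClpP at -3.10 and -0.76, and for ClpX at -2.60 and -1.34, in the authors' deposited table. The value of -3.10 (adjusted p = 0.000107 in the authors' deposited table) was the most negative of all member peaks for ClpP. The downstream Trim41 peaks were higher for ClpX at 2.29 and 0.56 in the authors' deposited table, while for ClpP they had -0.11 and -0.45 and were not called. Other PRY-SPRY members called for ClpX were Trim11, Trim26, Trim47 and Trim69. For ClpP a Trim11 peak at the gene's end was higher, at 1.0 (adjusted p = 5.25e-07) in the authors' deposited table. The most enriched Trim39 peak was lower for ClpP, at -0.97 (adjusted p = 8.91e-07) in the authors' deposited table. The ClpX peaks overlapping these had 0.17 and -0.15 there and were not called. Over all members listed as PRY-SPRY, 1 peak was higher and 7 lower of 32 for ClpP (6.74% and 12.8% of all peaks). For ClpX 10 were higher and 3 lower of 38 (15.1% and 5.0% of all peaks). The list, which includes Trim42, was not checked against protein sequences.

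**Figure D3:**
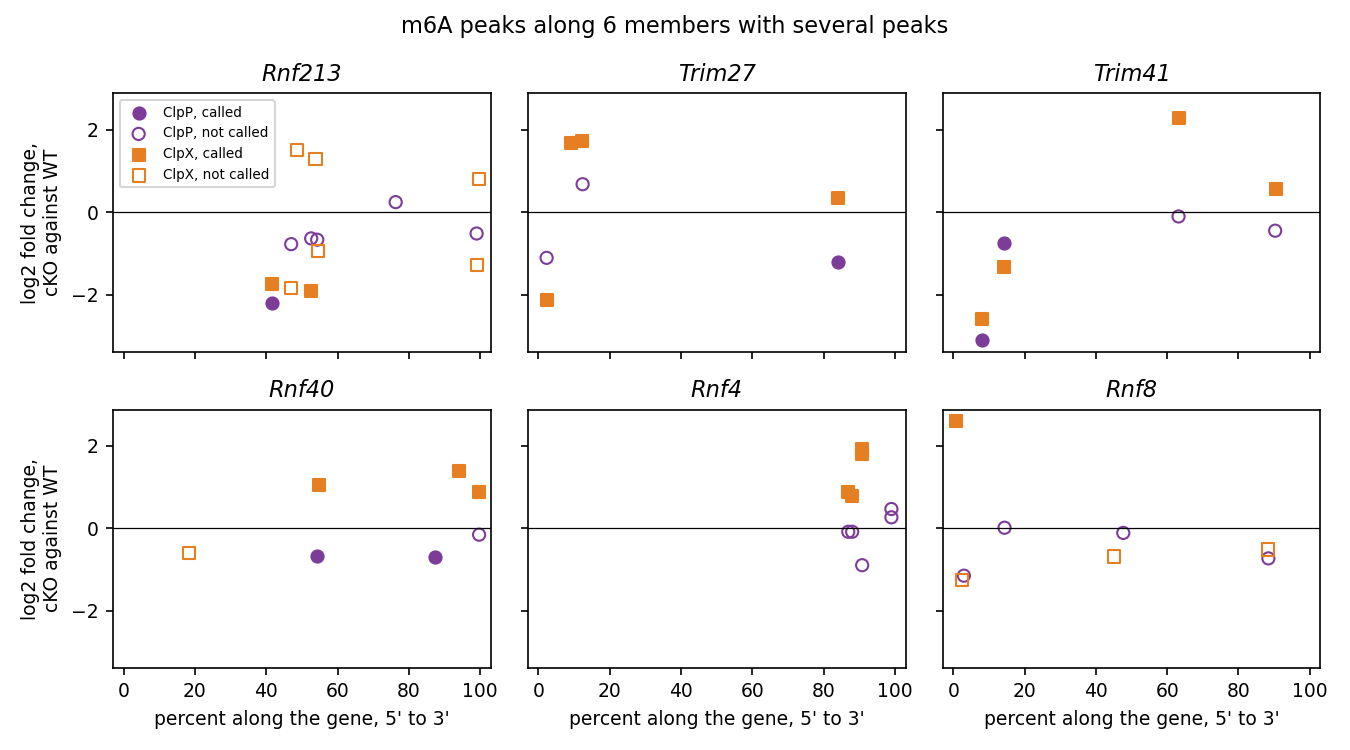
Peaks of 6 members with several peaks, placed by their midpoint in percent of the gene's length from the 5′ end (horizontal axis) against the log2 fold change, cKO against WT (vertical axis); filled symbols were called. In Trim41 and Trim27 the first ClpX peak is below 0 and the last above it, at -2.60 and 0.56 and at -2.13 and 0.33. In Rnf40 the called ClpP peaks (-0.66, -0.70) lie below 0 and the called ClpX peaks (1.05, 1.38, 0.87) above it. An uncalled Rnf40 ClpX peak at 105.0% of the gene's length lies outside the axis and is not shown.

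Among the RING-between-RING ligases, 1 peak was higher and 6 lower of 13 for ClpP (6.74% and 12.8% of all peaks). For ClpX 1 was higher and 2 lower of 12 (15.1% and 5.0% of all peaks). Rnf19a, which removes misfolded proteins, was lower for ClpP at both of its peaks, at -0.81 (adjusted p = 6.31e-29) and -0.49 (adjusted p = 7.94e-11) in the authors' deposited table. For ClpX the 3′ peak was lower at -0.36 (adjusted p = 0.0219) in the authors' deposited table and the other had 0.27, uncalled. Its close relative Rnf19b had a single peak, lower for ClpP at -0.57 (adjusted p = 3.98e-14) and higher for ClpX at 1.09 (adjusted p = 7.94e-14) in the authors' deposited table. The last peak of Rnf144b, a ligase induced by p53, was lower in both, at -0.47 (adjusted p = 0.0372) and -1.17 (adjusted p = 0.00741) in the authors' deposited table. Rnf216, needed for male fertility in mice, had a peak of fold enrichment 3.48 that was lower for ClpP at -1.01 and one of 1.73 that was higher at 2.50 in the authors' deposited table. Only the first had an overlapping ClpX peak, at -0.10 and uncalled in the authors' deposited table.

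Many members in the membrane of the endoplasmic reticulum act in the degradation of misfolded or surplus proteins there. As a list, members in this membrane had 1 peak higher and 5 lower of 17 for ClpP (6.74% and 12.8% of all peaks). For ClpX they had 3 higher and 4 lower of 15 (15.1% and 5.0% of all peaks). Rnf139 (TRC8), a sterol-responsive ligase, had the smallest adjusted p of any member peak for ClpP: the authors' deposited table gave -0.72 (adjusted p = 1.00e-117) over chr15:58898372-58901359. For ClpX that peak was lower at -0.33 (adjusted p = 3.16e-13) in the authors' deposited table. It spans 2988 bases for ClpP and shares bases with a peak of Tatdn1, so it cannot be given to Rnf139 alone. Rnf103 was lower in both, at -0.64 (adjusted p = 0.0115) and -0.76 (adjusted p = 0.0234) in the authors' deposited table.

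Rnf26, which tethers endosomes near the nucleus, had 1 long peak covering nearly the whole gene. It was higher for ClpX at 1.11 (adjusted p = 3.16e-19) and had -0.11, uncalled, for ClpP in the authors' deposited table. This peak shares bases with peaks of 3 predicted genes. Rnf185 had a small 3′ peak higher in both, at 0.87 (adjusted p = 0.0302) and 1.58 (adjusted p = 8.91e-05) in the authors' deposited table. Its main peak was lower for ClpP at -0.32 (adjusted p = 0.0209) in the authors' deposited table and uncalled for ClpX. Rnf145, which promotes sterol-driven loss of HMG-CoA reductase, had a weak peak higher for ClpX at 1.92 and its main peak lower at -1.31 in the authors' deposited table. Trim13 was lower for ClpP at -0.43 and Trim59 lower for ClpX at -0.63 in the authors' deposited table.

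Of the group around Rnf114 and Rnf126, 3 of 8 peaks were called higher and none lower for ClpX (15.1% and 5.0% of all peaks). For ClpP 1 of 7 was higher and 1 lower (6.74% and 12.8% of all peaks). Rnf126, which ubiquitylates proteins that missed their membrane, had a peak at the gene's very end that was lower for ClpP at -0.56 (adjusted p = 2.00e-16) in the authors' deposited table. For ClpX it was higher at 0.73 (adjusted p = 5.01e-12) in the authors' deposited table. Rnf114 and Rnf181 had 3′ peaks higher for ClpX at 1.91 (adjusted p = 2.19e-09) and 1.93 (adjusted p = 1.58e-14) in the authors' deposited table. This Rnf181 peak had the lowest fold enrichment of the ClpX member peaks, 1.58, in the authors' deposited table. The overlapping Rnf114 peak for ClpP had -0.55 there, uncalled, and no ClpP peak was listed at the Rnf181 position. Rnf115, the nearest relative of Rnf126, was higher for ClpP at 1.97 (adjusted p = 0.000813) in the authors' deposited table, where its ClpX peak had 1.35 and was not called.

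Of the transmembrane ligases with a protease-associated domain, Rnf133 is a germ-cell protein needed for normal sperm. Its 3′ peak was lower in both, at -0.77 (adjusted p = 0.00132) and -1.40 (adjusted p = 9.55e-05) in the authors' deposited table. Its 5′ peak was called in neither, with 0.35 and 1.54 there. Rnf215 was higher for ClpX at 2.87 (adjusted p = 0.0324) in the authors' deposited table, with 2.30 and no call for ClpP. Rnf43, which removes Wnt receptors from the cell surface, had the most positive member value for ClpP, 3.58 in the authors' deposited table, with an adjusted p of 0.465. The other peaks of this group that were not called include Rnf150, with -3.17 for ClpX (adjusted p = 0.525) in the authors' deposited table, the most negative of all member values.

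Members with a described role in germ cells had 3 peaks called higher and 8 lower of 43 for ClpP (6.74% and 12.8% of all peaks). For ClpX they had 15 higher and 4 lower of 40 (15.1% and 5.0% of all peaks), with overlapping Rnf4 peaks among the increases. The peaks were on 17 of 20 genes in each comparison. Rnf151, a testis protein linked to the acrosome, had a 4-block peak from its start that was lower for ClpP at -1.08 (adjusted p = 1.00e-14) in the authors' deposited table. That peak holds the printed Rnf151 stretch, and for ClpX it had -0.24, uncalled, in the authors' deposited table. The downstream Rnf151 peak was higher for ClpX at 1.79 (adjusted p = 6.31e-21), the smallest adjusted p among ClpX increases of members, and had 0.23, uncalled, for ClpP in the authors' deposited table. Trim36, which binds microtubules and takes part in the acrosome reaction, was lower in both at its 3′ peak, with -1.0 (adjusted p = 1.58e-22) and -0.56 (adjusted p = 0.00977) in the authors' deposited table.

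Trim37, a peroxisomal and centriolar ligase, was lower for ClpP at -0.84 (adjusted p = 0.000741) and uncalled for ClpX at -0.13 in the authors' deposited table. Its ClpP peak had a fold enrichment of only 1.68 in the authors' deposited table. Rnf141, a gene described in spermatogenesis, had 1 ClpP peak, higher at 2.23 (adjusted p = 2.19e-05) in the authors' deposited table, and none for ClpX. Trim69 was higher for ClpX at 0.45 (adjusted p = 0.017) in the authors' deposited table, at the gene's end. Rnf17, a Tudor-domain protein of the germ line that restrains piRNA amplification, had no called peak: the authors' deposited table gave 0.90 and 0.70 for ClpP and 1.01 for ClpX. Trim71, an RNA-binding NHL-repeat member known from stem cells, had 4 and 3 peaks and no call. The other NHL members had no call either, so none of 8 ClpP and 7 ClpX peaks of that class was called. Most peaks of all genes were uncalled too, 19405 of 24127 for ClpP and 18929 of 23681 for ClpX. Rnf32, expressed in testis, had a peak in its 5′ part higher in both, at 0.91 (adjusted p = 6.31e-15) and 0.94 (adjusted p = 1.05e-06), and an upstream one lower for ClpX at -1.90 (adjusted p = 0.010) in the authors' deposited table. The peak higher in both had a fold enrichment of only 1.86 (ClpP) and 1.63 (ClpX) in the authors' deposited table.

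Innate immune and antiviral members had no peak called higher. Lower were 1 of 13 peaks for ClpP (12.8% of all peaks) and 2 of 15 for ClpX (5.0% of all peaks), all on Rnf213. Its first peak was lower in both, at -2.20 (adjusted p = 0.000437) and -1.74 (adjusted p = 0.0309) in the authors' deposited table. Its most enriched peak was lower for ClpX at -1.92 (adjusted p = 1.41e-06) and had -0.64 (adjusted p = 0.0741), uncalled, for ClpP in the authors' deposited table. Trim45 had a 3-block peak lower in both, at -1.59 (adjusted p = 0.000107) and -2.09 (adjusted p = 0.000562) in the authors' deposited table. Rnf146 was lower for ClpP at its main peak, at -1.17 (adjusted p = 1.23e-07), and for ClpX at its 3′ peak, at -1.30 (adjusted p = 0.0302), in the authors' deposited table.

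Peaks of both comparisons could be paired by overlap at 150 sites on 91 genes, leaving 30 ClpP and 34 ClpX peaks without a partner. Because both rest on the same WT libraries, the values are only set side by side. Lower for ClpP and higher for ClpX were 8 of the 150 member sites (5.33%), against 4.02% of 18885 paired sites of all genes. The reverse was called at no member site and at 0.0424% of the paired sites of all genes. The 8 member sites were on Rnf6, Rnf19b, Rnf34, Rnf40, Rnf126, Trim26 and Trim27. Rnf6, a ligase of the androgen receptor, had -0.71 (adjusted p = 0.00398) and 1.19 (adjusted p = 0.00575) in the authors' deposited table. Its more enriched upstream peak was lower for ClpX at -1.16 in the authors' deposited table. Rnf34, which acts on caspases, had -0.33 and 0.79, and Trim26, a PRY-SPRY member, had -0.52 and 0.94, in the authors' deposited table.

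**Figure D4:**
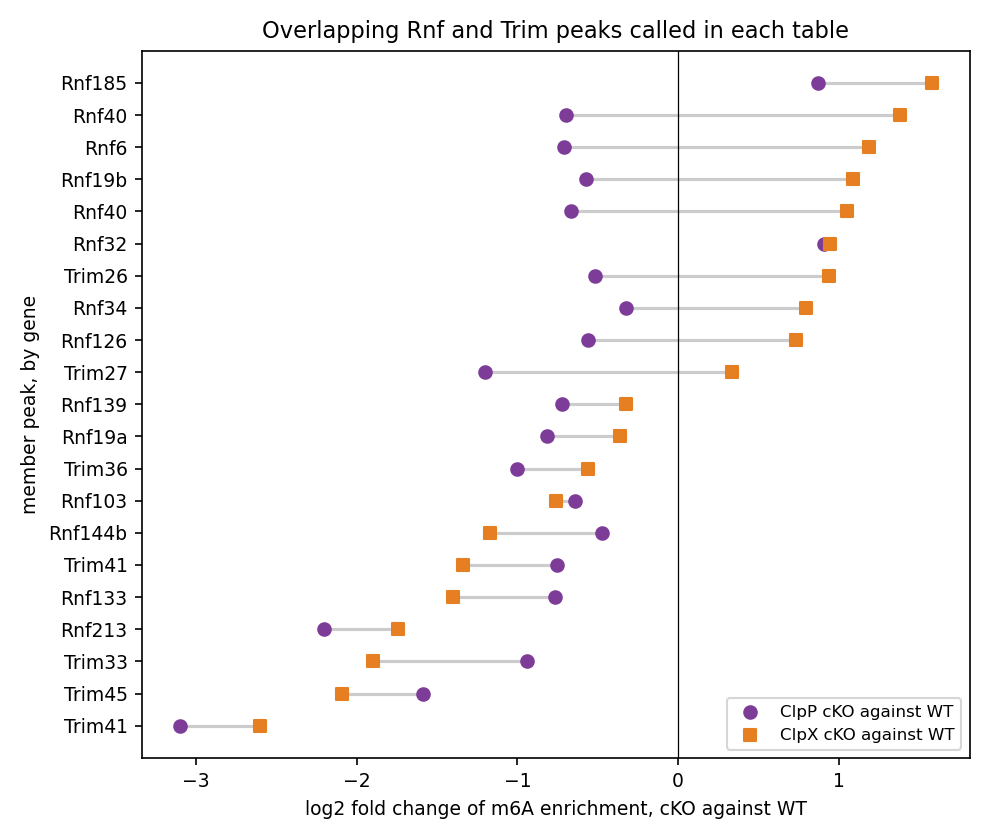
Overlapping member peaks called in both comparisons, 1 line per peak with its gene name, and the log2 fold change (cKO against WT) on the horizontal axis; purple circles are ClpP and orange squares ClpX. The pairs at the top that cross 0, from Rnf40 (-0.70, 1.38) to Trim27 (-1.20, 0.33), all have the ClpP value below 0, and Trim41 (-3.10, -2.60) lies lowest.

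Other enzymes of the pathway were counted in the same way. RING ligases of other names, such as Mdm2 and the March family, had 18 peaks higher and 40 lower of 169 on 81 genes for ClpP, with a median of -0.150. For ClpX they had 31 higher and 12 lower of 173 on 88 genes, with a median of 0.263. Ubiquitin-activating and conjugating enzymes had 1 peak higher and 11 lower of 40 for ClpP, and 8 higher and 6 lower of 39 for ClpX. Over all peaks, 6.74% were called higher and 12.8% lower for ClpP, and 15.1% and 5.0% for ClpX. No list was tested against the rest of the table.

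Among the cell markers, meiotic genes had a listed peak for 9 of 10 (ClpP) and 7 of 10 (ClpX). Spermatid genes had one for 7 of 7 in both, so transcripts of later stages were present too. Sertoli markers had one for 6 of 8 in both, and Leydig markers for 2 of 6 (ClpP) and 5 of 6 (ClpX). Macrophage markers had one for 3 of 6 (ClpP) and 4 of 6 (ClpX), and peritubular and endothelial markers for 2 of 3 each in both. Transcripts listed as somatic markers were thus present as well. The marker counts that follow stand beside 15.1% higher and 5.0% lower of all peaks for ClpX, and 6.74% and 12.8% for ClpP. Spermatid markers had 6 of 11 peaks higher and none lower for ClpX, and 2 higher and 2 lower of 9 for ClpP. Leydig cell markers had 3 of 6 peaks and macrophage markers 3 of 8 called higher for ClpX, with medians of 2.04 and 2.11, and none of 4 each for ClpP. Spermatogonial markers had 5 peaks higher and 1 lower of 9 for ClpX, with a median of 1.04, and 1 higher and 1 lower of 12 for ClpP. Sertoli markers had 3 higher and 2 lower of 11 for ClpX and 1 of each in 12 for ClpP, and meiotic markers 1 higher and 2 lower of 10 for ClpX and 4 higher and 3 lower of 18 for ClpP. Peritubular markers had 2 of 6 peaks higher for ClpP and none of 8 called for ClpX, and neither endothelial peak was called in either comparison. Some of these increases lay on a single gene. The meiotic ones for ClpP were all on Sycp2, the Sertoli ones for ClpX on Clu and the peritubular ones for ClpP on Myh11. The part of these cells in the ClpX increases of members was not tested, and expression levels were not analysed here. In bulk RNA, fewer cells of a type and less RNA per cell cannot be told apart.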

How the data were processed

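m6A-seq libraries of 3 genotypes, 1 IP and 1 input each, lie behind 2 deposited tables of the authors' comparisons (ClpP cKO and ClpX cKO against WT, 4 libraries each). Per the submitters' processing notes, coordinates are on GRCm38, also called mm10. Aligner, peak caller and scaling were not given in the sources used here. Each peak, per the file headers, has a p-value, scores that are the log10 of p and adjusted p, a fold enrichment of IP over input and a log2 fold change between genotypes. Depth is unknown, as these tables hold no read counts, and no test of replicates was possible.

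Members were taken by name. A peak was called at the authors' adjusted p under 0.05. Such calls compare libraries, not conditions. Peaks were placed on RefSeq gene spans by symbol and paired between tables by 1 or more shared bases on 1 strand. Of the 99 members, RefSeq lists Rnf227 as non-coding, and Rnf138rt1 and Rnf113a2 are close copies of other genes, so their peaks are uncertain. Named genes were, per comparison and direction, the 8 called peaks of smallest adjusted p, up to 3 called members of each list, sites called in both comparisons, the 3 most enriched peaks, the 3 members with most peaks and all members with a germ-cell role; other names were added after values were seen. Members and lists were chosen with earlier results of these data known. A planned RING search in proteins and m6A consensus search in whole peaks were not run, for want of those sequences here. The software was Python 3.11.15, pandas 2.3.3 and scipy 1.17.1. Functions for shared bases, for p adjustment and for calling with pooled errors passed checks on made or simulated data. Calling anew with each peak's own error was run on the same simulated data but had no required recovery. No limit was set there on false calls.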

Additional observations from a re-analysis of the deposited data

Results flagged for a closer look

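At 8 overlapping sites the 2 knockouts were called in opposite directions against the same WT libraries, lower for ClpP and higher for ClpX. They were 5.33% of 150 paired member sites, against 4.02% of 18885 paired sites of all genes. The reverse was called at none of the member sites and at 0.0424% of the paired sites of all genes. The median over all peaks was -0.034 for ClpP and 0.239 for ClpX, and the values below are not adjusted for this offset. The difference, ClpX minus ClpP on the log2 scale, was 1.297 for Rnf126, 1.663 for Rnf19b, 1.119 for Rnf34 and 1.899 for Rnf6. It was 1.714 and 2.075 for the middle and the 3′ site of Rnf40, 1.457 for Trim26 and 1.532 for Trim27. These differences were not tested, since each genotype has 1 library per kind. The sites were chosen by their opposite calls, so the size of these differences is a description.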

How the results depend on the processing

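No paired analysis was possible because each group has 1 library, and no library could be left out for the same reason. ClpP increases (13) became 8 at an adjusted p under 0.01 and 4 with 1 peak per gene. With the median subtracted and pooled errors they became 21 of 180 (11.9% of all peaks). ClpP decreases (35) became 9 when a change of 1 or more on the log2 scale was required. ClpX increases (34) became 20 with that minimum and 13 with 1 peak per gene. ClpX decreases (20) became 11 at an adjusted p under 0.01 and 40 with the median subtracted and peaks called anew (14.7% of all peaks). They became 34 with pooled errors as well (16% of all peaks) and 31 with pooled errors and no median subtracted (11.5% of all peaks). Pooled errors, and calling anew with no median subtracted, were chosen after seeing the data, because a log2 fold change near 0 implies a very small error of its own. The ClpP median of -0.147 moved to -0.156 at a fold enrichment of at least 2, -0.123 without peaks shared with another gene, -0.113 with the median subtracted and -0.215 with 1 peak per gene. The ClpX median of 0.296 moved to 0.278, 0.298 and 0.056 in the first 3 settings and reversed to -0.129 with 1 peak per gene. The cause of that reversal was not tested. Counting overlapping peaks of 1 gene once, also added after seeing the data, gave 32 ClpX increases and left the other counts as they were.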
